A study of Canis lupus familiaris with 12 samples.

Results

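MDCK is an established epithelial line from dog kidney. Its E47 transfectant was compared with MDCK-CMV control cells on 4 of the 12 arrays of the series, chosen by their titles. The other 8 arrays compare Snail or Slug transfectants of the same line with the same control, 4 arrays each. Every array is a 2-colour hybridisation of total RNA from a transfectant and the control to the Oncochip, a spotted array of human cDNA clones. The labels give 2 numbered samples, E47 1 and E47 2, and each has an array titled Cy5 and an array titled Cy3, for the dye of the transfectant. The sources used here do not give the constructs, the meaning of CMV, whether a transfectant is a clone or a pool, or whether its numbered samples are separate cultures. P-values therefore cover the spread of these samples alone, which may be technical.

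E47 is a helix-loop-helix protein made from the gene TCF3. Such factors pair with other basic helix-loop-helix proteins and bind short DNA elements called E-boxes, while the ID proteins pair with them but cannot bind DNA and so hold them inactive. E47 is known to bind the E-cadherin promoter and repress CDH1, the gene of the main adhesion protein of epithelial junctions, and loss of E-cadherin accompanies the epithelial to mesenchymal transition (EMT), in which cells give up junctions and keratins and gain matrix proteins and motility.

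All values are log2 ratios, so 1 is a 2-fold difference, and a gene's value is the mean of its clones. The direction is assumed: the labels do not say which channel is the numerator, and the signs did not follow the dyes in the titles. As deposited, the arrays titled Cy5 of E47 1 and E47 2 correlated with r = -0.61 over 11290 probes, the array pair of E47 2 with -0.74, and the array pair of E47 1, a dye pair too, with 0.26. The E47 2 array titled Cy5 was therefore multiplied by -1 and the other 3 were not, which places CDH1 below the control on every E47 array. CDH1 set the sign, so its fall is no finding, and with the opposite sign every rise below becomes a fall and every fall a rise. Duplicate spots of a clone correlated with r = 0.30 on the E47 1 array titled Cy3 and with 0.68 to 0.77 on the other 3 E47 arrays, so the counts past the threshold are also given without that array.

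The first CDH1 clone had log2 ratios of -1.41 and -3.12 on the E47 1 arrays titled Cy3 and Cy5 and of -3.52 and -2.92 on those of E47 2. The second clone had -2.39 and -4.45 in E47 1 and -4.48 and -3.77 in E47 2. Both clones were lowest in size on the E47 1 array titled Cy3. The remaining clone lay at -0.03 and 0.65 in E47 1 and at 0.33 and 0.21 in E47 2, close to the control, and was the only clone of a gene past the threshold to lie on the other side of 0: of 33 such genes with 2 or more measured clones, this happened in 1, CDH1. TCF3, the gene of E47 itself, had a single clone at 0.77 and 0.87 in E47 1 and at 0.60 and 0.60 in E47 2. All 4 arrays lay above 0, with a mean of 0.71 ± 0.15 (SD, n = 2 samples; limma adjusted p = 0.0257), which is 1.63-fold. Its call was lost without sample 1 (0.60) and without sample 2 (0.82), and whether this human clone reads the introduced RNA is not given. Here and below, a fit that leaves out 1 sample has no spread from that sample's group. Its p-values then rest on the spread of the other groups and on limma's pooling over genes. A call lost or kept in such a fit does not measure how well the 2 samples agree.

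**Figure D1:**
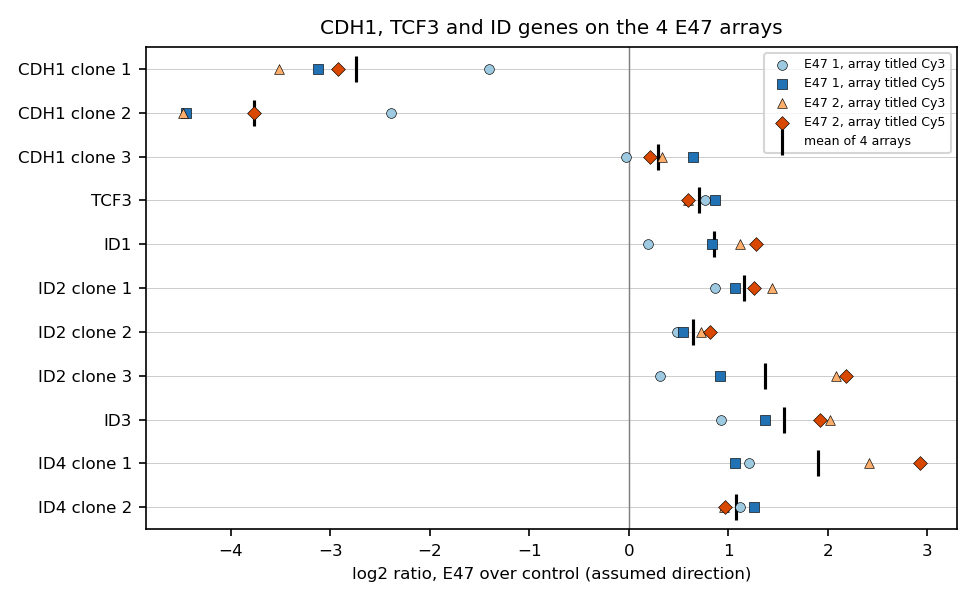
Log2 ratio of E47 over control (x axis, assumed direction) for each clone of CDH1, TCF3 and the ID genes on the 4 arrays; each symbol is an array and the bar is the mean of the 4. CDH1 clones 1 and 2 lie below 0 and clone 3 near 0, while TCF3 and every ID clone lie above 0 on all 4 arrays.

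Among helix-loop-helix inhibitors and basic helix-loop-helix factors, 7 of the 18 measured members of the list rose and none fell, and without the E47 1 array titled Cy3 8 rose and none fell. TCF3, the gene of the transfected factor itself, is among the 7. The list is incomplete: at least 3 more basic helix-loop-helix genes were found past the threshold after their values were seen. AHR (0.82) and MXD4 (0.66) were higher and MITF (-0.79, limma adjusted p = 0.0478) lower. For scale, of 3966 genes tested 210 (5.3%) were called in either direction by limma at an adjusted p of 0.05, 3.81% upward and 1.49% downward. Without the E47 1 array titled Cy3, 368 of 4110 genes were called, a larger share. List counts without that array, here and below, are to be read against the larger share. The median of the helix-loop-helix list was 0.58, against 0.01 over all genes tested. Of its members 16 of 18 lay above 0, against 1997 of 3966 genes tested. ID3 had 0.93 and 1.37 on the E47 1 arrays and 2.02 and 1.92 on those of E47 2. ID4 had 1.17 and 1.17, then 1.69 and 1.95; its first clone reached 2.93 and its second 1.26 at most. For ID3 and ID4 both samples lay above 0 on all arrays and did not overlap, with the higher values in E47 2. The second ID4 clone went the other way, with 1.19 in E47 1 and 0.97 in E47 2. ID2 had sample values of 0.70 and 1.42, and 1 of its 3 clones differed most between the samples (0.62 and 2.13). ID1 had 0.51 and 1.20. ID1, ID2 and ID4 lost their calls without sample 2, where the sample 1 values of 0.51, 0.70 and 1.17 stand alone, while ID3 kept its call without either sample. ID1 was also lost without either Snail sample (adjusted p = 0.0536), since the groups share 1 estimate of spread. BHLHE40, a basic helix-loop-helix repressor, lay at 1.02 in sample 1 and 1.70 in sample 2 (mean 1.36 ± 0.49, adjusted p = 0.00701), and its call was lost without sample 2. TWIST1, a driver of EMT, had 0.83 and 1.58, then 2.71 and 2.83 (mean 1.99 ± 1.11, adjusted p = 0.0151), and was lost without sample 2 (1.21). Values that did not pass were those of TCF4, the gene of the related factor E2-2, at 1 (adjusted p = 0.238), CDKN1A, the cyclin-dependent kinase inhibitor p21, at -0.34 and 1.74 in samples 1 and 2, HIF1A, the hypoxia factor, at 0.47 (adjusted p = 0.0867) and RUNX1T1, a corepressor, at -0.48 (adjusted p = 0.131). CDKN1A and RUNX1T1 are on the list but are not helix-loop-helix proteins themselves.

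Over all genes, 151 passed upward and 59 downward, 57 and 23 of them at least 2-fold; with the sign turned the split is 59 upward and 151 downward. All 210 had values on 4 arrays, and all but 1, SIRPA, lay on the same side of 0 on all 4, as did 32.5% of the genes tested. SIRPA, a membrane receptor, had -0.14 on the E47 1 array titled Cy3 and a mean of 1.98. Without that array 368 of 4110 genes passed, 245 higher and 123 lower, 200 of them shared with the 210. The counts that follow come from fits with a single E47 sample, which hold no spread of E47. Of the 210, 83 remained called without sample 1, 24 without sample 2 and 23 without either.

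Those 23 genes were 14 that rose and 9 that fell. COL1A2, a chain of type I collagen, lay at 2.92 and 2.27 on the E47 1 arrays and at 3.46 and 3.44 on those of E47 2, which is 8.12-fold over the mean. GAS1, a membrane protein named for growth arrest, lay at 3.48 and 2.92, then 2.94 and 2.47; its first clone had 3.13 and 3.89 by sample and its second 3.28 and 1.52, so the clones did not rank the samples alike. TMEFF1, a membrane protein with EGF-like and follistatin-like domains, had 1.70 and 2.04 in E47 1 and 3.74 and 3.32 in E47 2. CXXC5, a zinc finger protein of Wnt and BMP signalling, had 2.27 and 2.07, then 2.81 and 2.80. GNAI1, an inhibitory G protein subunit, had 2.13 and 1.91, then 2.84 and 1.98, with overlapping samples. GABBR2, a subunit of the GABA-B receptor, had 2.14 and 0.98, then 2.22 and 2.41. ITGBL1, a secreted protein with integrin beta-like repeats, had the closest large values, between 1.71 and 1.95. DOCK4, a Rac activator, lay between 1.13 and 1.85.

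Among the largest rises, SPARC, a secreted matrix protein, had the highest mean of the genes past the threshold, at 4.76 and 5.25 in E47 1 and 4.46 and 4.29 in E47 2. Its SE was 0.88, from a spread shared by the 3 groups, and its call (adjusted p = 0.024) was lost without either E47 sample (5 in sample 1, 4.38 in sample 2) and without either Snail sample (adjusted p = 0.0536). CALD1, the actin-binding caldesmon, had 2.72 and 2.43, then 1.29 and 2.60; its adjusted p was 0.0478, and it too was lost without either E47 sample (2.57 and 1.94) and without either Snail sample (0.0785). ITM2B, a membrane protein that binds the amyloid precursor protein, had 2.38 and 1.95, then 2.54 and 2.65, and was lost without sample 2 (2.16). SCD5, a fatty acid desaturase, had 0.43 on the E47 1 array titled Cy3 and 2.46 to 2.78 on the other 3. MAP1B, a microtubule-associated protein, had 0.83 and 1.00, then 2.35 and 2.74. SCD5 and MAP1B lost their calls without sample 2, where 1.45 and 0.92 remain.

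Among the largest falls, RGS2, which shortens G protein signals, had -2.60 on the E47 1 array titled Cy3 and -3.86, -3.76 and -3.81 on the other 3, with an 11.4-fold lower mean. SPP1, the secreted osteopontin, had -2.56 and -2.68 in E47 1 and -3.61 and -3.22 in E47 2. FXYD3, a regulator of the sodium pump, had -1.62 and -3.18, then -3.41 and -3.35. TSPAN13, a tetraspanin, lay between -2.19 and -2.83, and FGFBP1, a secreted carrier of fibroblast growth factors, between -1.99 and -2.68. PLSCR1, a phospholipid scramblase, had -1.28 and -1.92, then -1.27 and -2.29. These 6 kept their calls without either sample. IL1RN, the interleukin-1 receptor antagonist, had sample values of -1.74 and -2.55, SLCO2A1, a prostaglandin transporter, -1.47 and -2.78, NID2, a basement membrane nidogen, -1.54 and -2.42, and ADGRV1, an adhesion receptor, -1.19 and -1.63; all 4 lost their calls without sample 2. TFF1, a secreted trefoil peptide, went the other way between the samples, with -2.74 and -2.43 in E47 1 and -1.28 and -0.71 in E47 2, and lost its call without sample 1 (-1).

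**Figure D2:**
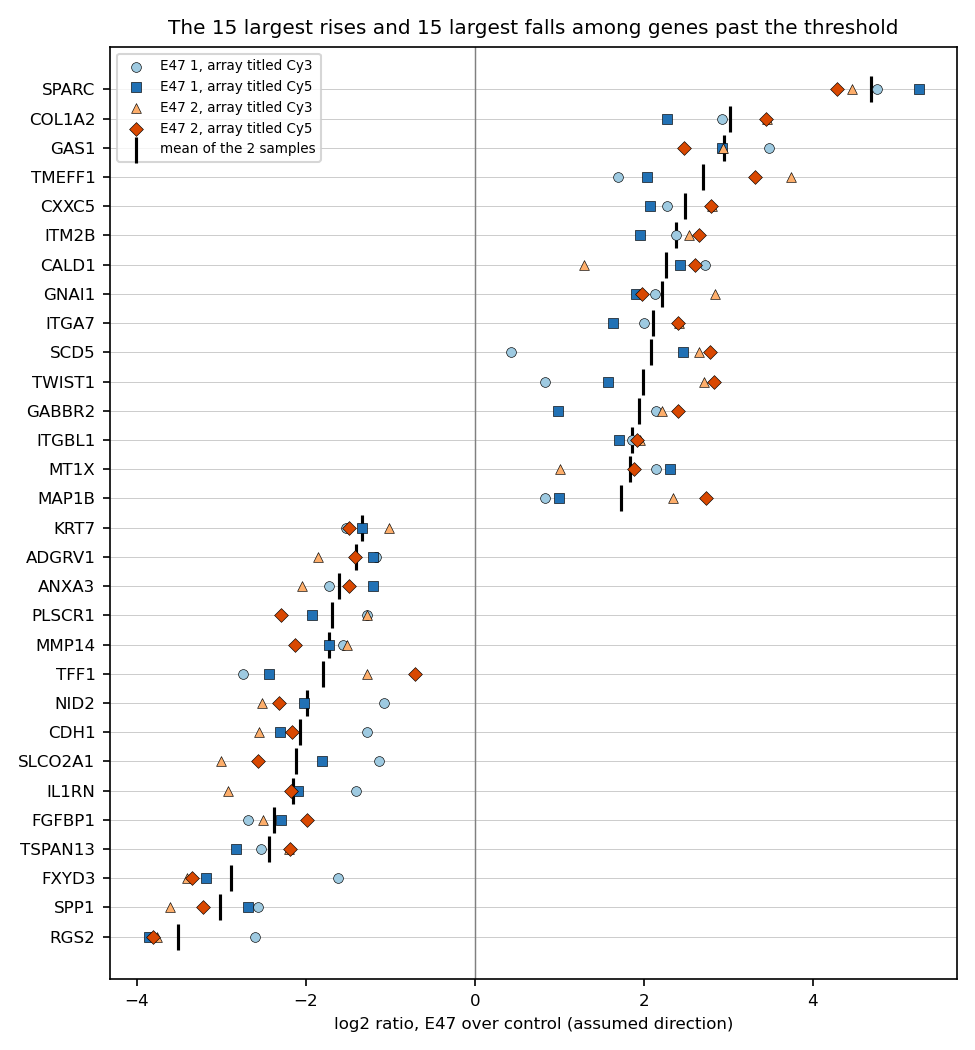
Log2 ratio of E47 over control (x axis, assumed direction) on each of the 4 arrays for the 15 largest rises and the 15 largest falls past the threshold; symbols are arrays and bars the mean of the 2 samples. The E47 1 array titled Cy3 lies nearest 0 for several genes, among them SCD5 at 0.43, FXYD3 at -1.62 and RGS2 at -2.60.

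Of the epithelial junction and polarity genes other than CDH1, which set the sign, 1 of 15 fell and 1 rose (13.3% called; median -0.05). With CDH1 the list had 2 of 16 lower and 1 higher, and without the E47 1 array titled Cy3 it had 3 lower and 1 higher. DSP, the desmosome protein desmoplakin, fell, with -0.70 and -0.56 on the E47 1 arrays and -0.83 and -0.59 on those of E47 2 (mean -0.67 ± 0.06, SD, n = 2). GJA1, the gap junction protein connexin 43, rose, with 0.72 and 0.92, then 1.11 and 1.25 (mean 1.00 ± 0.26). Neither kept its call without sample 1 or 2 (DSP -0.71 and -0.63, GJA1 1.19 and 0.82). EPCAM, an epithelial adhesion molecule, had 0.15 and -0.87 in E47 1 and -2.59 and -2.80 in E47 2 and did not pass (adjusted p = 0.304). DSG2 and DSC2, the desmosomal cadherins, lay at -0.76 (adjusted p = 0.244) and -0.51 (adjusted p = 0.0991), and CLDN1, a tight junction claudin, at -0.29 (adjusted p = 0.451).

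Keratins and differentiation genes had 4 of 12 lower and 1 higher (41.7% called), with a median of -0.26. Without the E47 1 array titled Cy3 5 were lower and 1 higher. The lists were chosen with earlier results of these data known, so their shares called do not rank them. KRT7, a keratin of simple epithelia, lay between -1.02 and -1.52 on the 4 arrays, with overlapping samples. ANXA3, a calcium-dependent membrane-binding protein, lay between -1.20 and -2.04 and lost its call without sample 2 (-1.47). The other falls were FXYD3 and TFF1, given above. SFN, 14-3-3 sigma, an inhibitor of the cell cycle made in epithelia, rose, with 0.42 and 1.15, then 0.79 and 0.85, but not without sample 1 (0.82) or 2 (0.79). KRT8, another keratin of simple epithelia, was above the control in E47 1 (0.60 and 0.23) and below it in E47 2 (-0.85 and -0.64). It did not pass. KRT10 (-0.18), KRT20 (-0.14) and KRT18 (-0.12) did not pass either, so KRT7 was the only measured keratin of the list that was called.

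Mesenchymal markers and actin-binding proteins had 4 of 13 higher and none lower (30.8% called), or 6 of them without the E47 1 array titled Cy3; the median was 0.37. Beside SPARC and CALD1, FN1, the matrix protein fibronectin, had 0.66 and 1.08, then 1.22 and 1.57 (mean 1.13 ± 0.37). CDH6, a cadherin of kidney epithelium in development, had 0.37 and 1.14, then 1.45 and 1.67 (mean 1.16 ± 0.57). Both were lost without sample 2 (0.87 and 0.76). MSN, moesin, which ties actin to the membrane, had 1.15 (adjusted p = 0.0564) and ACTN1, alpha-actinin, 0.92 (adjusted p = 0.0522); without the E47 1 array titled Cy3 they passed, at 1.27 and 0.98. VIM, the intermediate filament protein vimentin, did not pass, and its side of 0 went with the array title in both samples. It had 0.33 in E47 1 and 0.41 in E47 2 on the arrays titled Cy3, and -1.27 and -0.61 on those titled Cy5. CDH2, N-cadherin, was at 0.13 (adjusted p = 0.716) and CAPG, an actin-capping protein, at -0.46 (adjusted p = 0.101). Of the remaining members ACTA2 lay at 0.37, CDH11 and TNC at -0.06 each and THY1 at -0.19, none past the threshold. Among EMT transcription factors, TWIST1 and TCF3, the gene of E47 itself, rose, 2 of 6 with or without the E47 1 array titled Cy3. All 6 means lay above 0, as did those of 1997 of the 3966 genes tested. ZEB1, a zinc finger repressor of CDH1, at 0.55 (adjusted p = 0.14), SNAI1, the gene of Snail, at 0.17 (adjusted p = 0.782) and KLF8 at 0.02 did not pass, nor did TCF4. In bulk RNA of this kind, fewer cells with a transcript and less of it per cell cannot be told apart.

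Collagens and matrix genes went both ways: 4 of 29 rose and 3 fell, with a median of 0.04, and without the E47 1 array titled Cy3 4 rose and 2 fell. The rises were SPARC, COL1A2, FN1 and SERPINH1, the collagen chaperone HSP47 (0.59 and 0.91 by sample), whose second clone had 0.99 and 1.63 and whose first had 0.19 and 0.18. The falls were SPP1, NID2 and TGFBI, a secreted adhesion protein (-0.46 and -0.63). SERPINH1 and TGFBI lost their calls without either sample, and TGFBI also without the E47 1 array titled Cy3 (-0.47, adjusted p = 0.0882) and without either Snail sample (adjusted p = 0.0661). LUM, the proteoglycan lumican, had 0.06 and 0.44 and did not pass. Of the matrix proteases and inhibitors, 2 of 25 fell and 1 rose, or 3 and 3 without the E47 1 array titled Cy3. MMP14, a membrane-bound metalloproteinase, had -1.56 and -1.73, then -1.51 and -2.13, and kept its call without either sample. PLAU, the protease urokinase, had -0.41 and -0.69, then -1.41 and -1.27, and was lost without sample 2 (-0.55). MMP19, another metalloproteinase, rose to 0.66 but not without either sample (0.86 and 0.46). Without either Snail sample PLAU had an adjusted p of 0.0539 and MMP19 of 0.0536. TIMP3, an inhibitor of metalloproteinases, lay at -0.66 (adjusted p = 0.0608), with -0.57 and -0.75 for its clones.

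Integrins and focal adhesion genes had 5 of 29 higher and none lower (17.2% called), or 7 higher and 2 lower without the E47 1 array titled Cy3. ITGA7, the laminin receptor subunit of muscle, led with 2.00 and 1.63, then 2.42 and 2.41, and VCL, the focal adhesion protein vinculin, had 1.13 and 1.81, then 0.95 and 1.08. Both kept their calls without either sample. ITGAV, a subunit of vitronectin receptors, had 0.79 and 1.51 by sample, MCAM, an adhesion molecule of the immunoglobulin family, 1.11 and 0.94, and SDC4, a heparan sulfate proteoglycan of focal adhesions, 1.15 and 0.80; each was lost without either sample, and ITGAV also without either Snail sample (adjusted p = 0.0645). ITGA5, the fibronectin receptor subunit, did not pass, with -0.49 and 1.56 in E47 1 and 2.62 and 2.76 in E47 2. ITGB6, an integrin of epithelia, had -0.27 and -1.81 by sample and CD151, a tetraspanin partner of integrins, -0.54 and -1.10, also without passing.

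G protein and small GTPase genes had 3 of 40 higher and 1 lower (10% called), or 6 higher and 2 lower without the E47 1 array titled Cy3. GNAI1 rose and RGS2 fell, as above. GNG12, a gamma subunit, had 0.58 and 0.97 by sample, and GNAS, the stimulatory alpha subunit, 0.50 and 0.63. GNG12 was lost without sample 2, and GNAS without either E47 sample and without either Snail sample (adjusted p = 0.0518). Of the 3 GNAS clones only the second was clearly above the control (1.10, the others 0.19 and 0.40), and with the median over clones GNAS was no longer called (0.41, adjusted p = 0.0943). GNG11, another gamma subunit, had -0.77 and 1.79 in E47 1 and 3.26 and 3.02 in E47 2 and did not pass (adjusted p = 0.0802).

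Of 32 measured genes of the TGF-beta and BMP pathways, 5 rose and none fell (15.6% called; median 0.17), with equal counts when the E47 1 array titled Cy3 was left out. The receptors were ACVR1, a type I BMP and activin receptor (1.05 and 1.66 by sample), and TGFBR3, the co-receptor betaglycan (0.73 and 0.59). INHBB, an activin subunit, had 0.81 and 1.01, with its first clone at 1.41 and its second at 0.41. SMAD7, an inhibitor induced by the pathway, had 0.70 and 0.91, and CCN2, a matrix-associated target, 1.12 and 1.00. Without sample 2 none of the 5 was called, and without sample 1 ACVR1 and INHBB were. Wnt and Notch signalling had 3 of 30 higher and none lower, or 4 higher without that array. NOTCH2, a Notch receptor, lay between 1.22 and 1.42 on all 4 arrays (mean 1.34 ± 0.03), and was lost without sample 2 (1.32). The Frizzled receptors FZD6 (0.71 and 0.82) and FZD7 (0.71 and 0.75) rose and were lost without either sample; their clones had means of 0.67 and 0.86 and of 0.71 and 0.74. WNT5A, a Wnt ligand, had 0.41 and 1.39, then 3.40 and 3.66, and did not pass (adjusted p = 0.0984).

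Growth factor, receptor and MAPK genes had 3 of 45 higher and none lower, 6.67% called and so close to the 5.3% of all genes, and 5 higher without the E47 1 array titled Cy3. SPRY2, a feedback inhibitor of receptor tyrosine kinases, lay between 1.37 and 1.87 on the 4 arrays and kept its call without either sample. EGR1, an immediate early factor (1.02 and 1.00), and JUND, an AP-1 subunit (0.63 and 0.85), were lost without either. Cell cycle and growth arrest genes had 3 of 49 higher and none lower (6.12%), or 8 higher and 2 lower without the E47 1 array titled Cy3. Over all genes 368 of 4110 passed without that array. GAS1 was the first of the 3 that rose. TOB1, an antiproliferative protein, had 1.16 and 1.10 and was lost without sample 2. CCND1, cyclin D1, had 0.70 and 0.76; its clones lay at 1.20, 0.03 and 0.95, and the call was lost without either sample. MYC stood at 0.22 and 0.22 (adjusted p = 0.576) and CHEK1, a checkpoint kinase, at -0.70 (adjusted p = 0.0538).

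Apoptosis genes had 1 of 35 higher, DAPK1, a death-associated kinase (0.57 and 0.58), and 1 lower, TNFRSF21, a death receptor (-0.99 and -0.73), 5.71% called; without the E47 1 array titled Cy3 5 were higher and 1 lower. Both were lost without either sample, and the DAPK1 clones lay at 1.16, 0.02 and 0.54. Angiogenesis and hypoxia genes had 3 of 24 higher and none lower, all growth factors, or 3 higher and 2 lower without that array. VEGFA had 0.71 and 1.42, then 1.21 and 1.46, VEGFC 0.76 and 1.02 by sample and HDGF, hepatoma-derived growth factor, 0.64 and 0.84. VEGFA and VEGFC were lost without sample 2 and HDGF without either. EDN1, the vasoconstrictor endothelin-1, lay at -0.35 and -1.46 (adjusted p = 0.0879).

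In metabolism and transport, 4 of 17 glycolysis and lipid genes rose and none fell (23.5%), the same counts as without the E47 1 array titled Cy3. Beside SCD5 these were the glycolytic enzymes PKM (1.10 and 0.81), ALDOA (0.76 and 0.75) and PFKM (0.43 and 0.76), all lost without either sample. PFKM was also lost without either Snail sample (adjusted p = 0.0677). With a dye term, in a limma fit on single arrays, PKM was at 0.96 with adjusted p = 0.19. Solute carriers, pumps and channels had 2 of 17 higher, ATP1B1, the beta subunit of the sodium pump (0.78 and 1.35), and ABCA1, a cholesterol exporter (0.70 and 0.95), and 2 lower, FXYD3 and SLCO2A1, or 2 and 3 without that array. ATP1B1 was lost without either E47 sample and without either Snail sample (adjusted p = 0.0642), and ABCA1 without sample 2.

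Stress genes had 2 of 23 higher and 1 lower, as they did without the E47 1 array titled Cy3. The metallothioneins MT1X, with 2.15 and 2.31, then 1.01 and 1.88, and MT2A, with 1.28 and 1.56, then 1.94 and 1.06, bind metals and kept their calls without either sample; near-identical family members may hybridise to the same clone. ATF4, the factor of the amino acid response, fell to -0.65 ± 0.03 and was lost without either sample (-0.63 and -0.67). Interferon and immune genes had 1 of 48 lower, IL1RN (2.08%), and ribosome and translation genes 1 of 22 lower, EIF2S1, an initiation factor (-0.70 and -0.62), which was lost without either sample and without the E47 1 array titled Cy3 (-0.57, adjusted p = 0.0506). Without that array the interferon list had 1 higher and 3 lower, and the ribosome list 1 higher and 1 lower. No leukocyte marker (0 of 9, and 0 at unadjusted p of 0.05) and no endothelial marker (0 of 9, and 1 unadjusted) passed in limma.

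**Figure D3:**
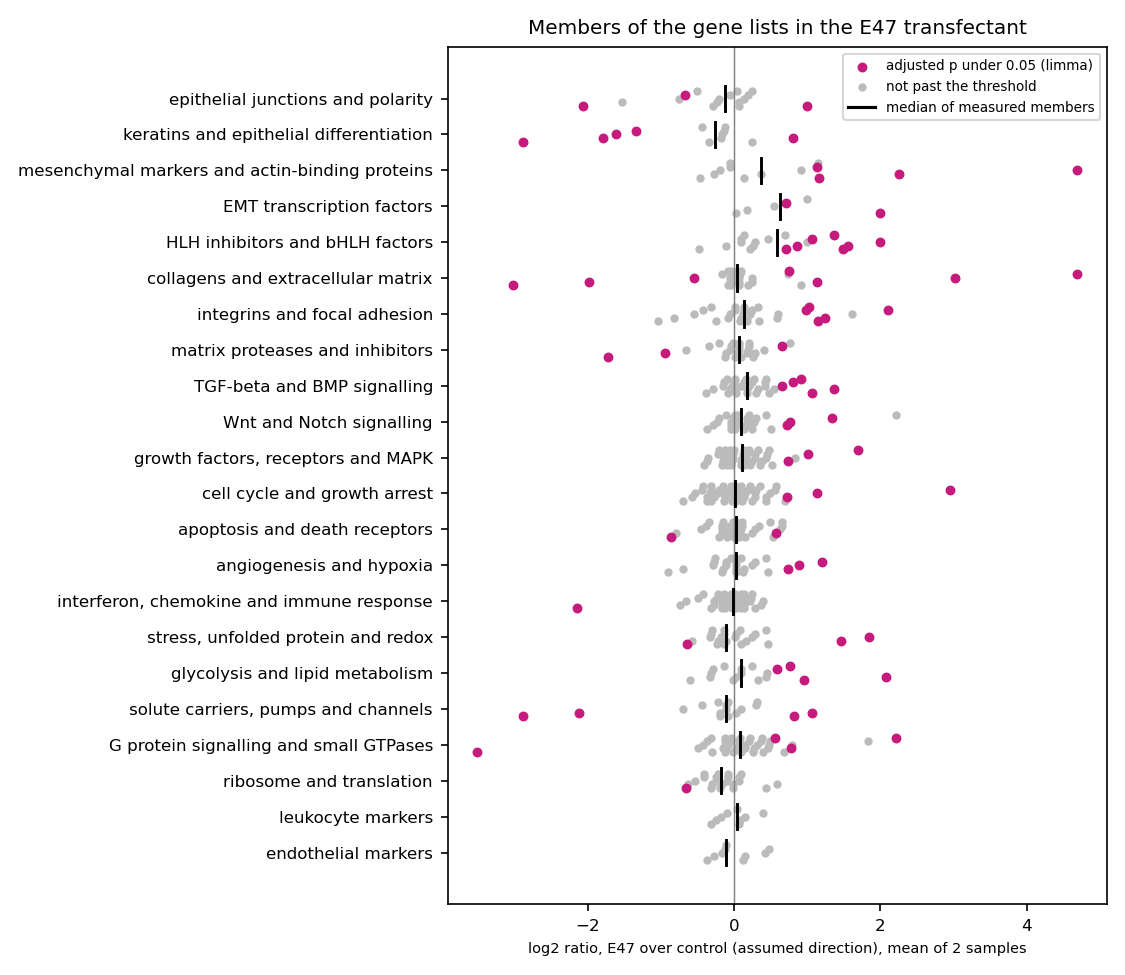
Mean log2 ratio of E47 over control (x axis, assumed direction) for every measured member of each gene list; coloured points passed adjusted p of 0.05 in limma, grey points did not, and bars are list medians. The keratin and differentiation list holds 4 coloured points below 0, of which only KRT7 is a keratin. Helix-loop-helix genes hold 7 coloured points above 0, TCF3 among them, and the leukocyte and endothelial lists none.

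In all, 67 of the 210 genes belonged to a list and 143 did not, 101 of them higher and 42 lower. The following families were chosen after their values were seen, by symbol, and are descriptions. Over all genes tested 3.81% passed upward and 1.49% downward. Of 12 subunits of the V-ATPase, the proton pump of lysosomes, 3 rose, ATP6V0C (1.12), ATP6V1C1 (0.83) and ATP6V0B (0.58), and ATP6V1F (-0.60) fell. The lysosomal membrane proteins LAMP2 (1.18) and CD63 (1.32) also rose. Of 10 annexins, ANXA5 rose (1.23 and 1.99 by sample), ANXA3 and ANXA1 (-0.91 and -1.19) fell, and 7 did not pass. Of 33 respiratory chain subunits 2 fell, COX7A2 (-0.64) and UQCRQ (-0.60), and the median was -0.07. Single genes, also chosen after their values were seen, were STMN1, the microtubule regulator stathmin (0.95 and 1.83 by sample), LATS2 (1.14) and STK3 (0.96), both protein kinases, which rose. MAP7, a microtubule-associated protein (-1.29), GAB1, an adaptor of receptor tyrosine kinases (-0.66 and -1.53), and MST1R, the receptor RON (-0.86), fell.

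Samples E47 1 and E47 2 differed by a median of 0.18 per gene and correlated with r = 0.73 across 3966 genes, which are not independent replicates. For 33 genes the samples lay over 1 apart with no overlap between their arrays, a description with no test; E47 2 was higher in 21 and lower in 12, and it was further from 0 in 24. GNG11, WNT5A, EPCAM, ITGA5 and CDKN1A led, with E47 2 above E47 1 by 2.63, 2.62, 2.16 and 2.08 for GNG11, WNT5A, ITGA5 and CDKN1A and by -2.33 for EPCAM. In GNG11, ITGA5 and CDKN1A the 2 arrays of E47 1 lay on opposite sides of 0, the array titled Cy3 below; in EPCAM they did too, with 0.15 on the array titled Cy3 and -0.87 on the array titled Cy5. Without that array GNG11 (2.47), WNT5A (2.46), ITGA5 (2.12) and CDKN1A (1.24) passed, with adjusted p of 8.99e-05, 0.00762, 0.000227 and 0.00265, and EPCAM did not (-1.78, adjusted p = 0.0724). Other genes differed between the samples while both E47 1 arrays lay together: CTNNAL1, an alpha-catenin relative (-0.81 and -0.38, then -1.97 and -2.47), CDON, a cell surface receptor (0.05 and 0.23, then 1.26 and 2.00), and ELMO1, a partner of DOCK proteins in Rac activation (1.38 and 1.49, then 0.03 and -0.06). Among genes past the threshold, the E47 1 array titled Cy3 had the smallest value of the 4 for 104 of 210, and its median size was 0.75 against 0.94 to 1.01 on the others.

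**Figure D4:**
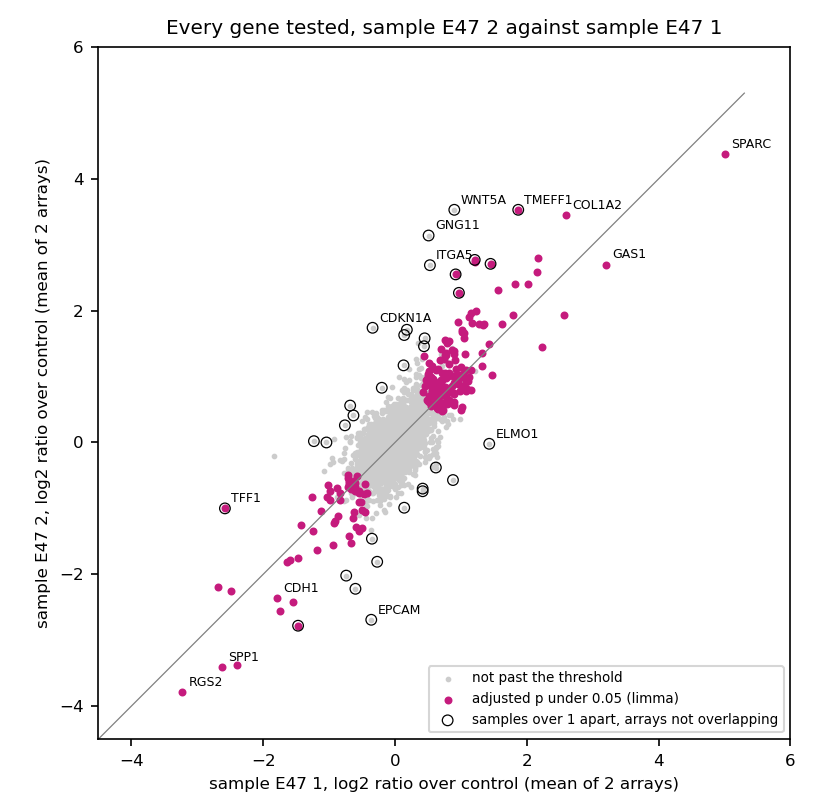
Log2 ratio over control of each of 3966 genes in sample E47 2 (y axis) against sample E47 1 (x axis), each the mean of 2 arrays; coloured points passed adjusted p of 0.05, and circles mark the 33 genes whose samples lay over 1 apart with no overlap. WNT5A, GNG11 and ITGA5 lie far above the diagonal and EPCAM far below it, while GAS1, SPARC, SPP1 and RGS2 lie near it.

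The E47 values were set against those of the other transfectants to find where E47 differs, which for a common control leaves that control out of the difference as long as the signs are right. E47 and Snail differed at 93 of 3617 genes (2.57%), 87 higher (2.41%) and 6 lower (0.166%) in E47. In the main fit the median difference over all genes tested was 0.074. With the arrays centred on their medians and scaled to the same spread the counts were 123 and 30. With the sign of E47 turned 357 genes differed. Of the 93 genes, 40 had passed against the control in E47 alone, 39 in Snail alone, 8 in both and 6 in neither. In 72 the E47 and Snail means lay on opposite sides of 0. Picking genes by a large difference favours such means, and the share over all genes was not computed, so the 72 are a description. Without E47 sample 1 or 2 the count was 42 and 3, and without Snail sample 1 or 2 it was 13 and 14.

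GAS1 differed most from Snail, by 2.73 ± 0.21 (SE; adjusted p = 0.00538), with 3.20 and 2.70 in the E47 samples and 0.19 and 0.25 in Snail. HDGF was above the control in E47 (0.64 and 0.84) and below it in Snail (-1.61 and -1.29), a difference of 2.19 ± 0.19 (adjusted p = 0.00581). These 2 differences kept their calls without any E47 or Snail sample. ITGA6, a laminin receptor subunit of epithelia, had 0.45 and 0.74 in E47 and -1.59 and -1.49 in Snail, and SRSF4, a splicing factor, 0.89 and 0.62 against -1.08 and -1.50. EPS8, an actin regulator, had 0.72 and 1.16 against -1.70 and -0.54, and MYC 0.22 and 0.22 against -1.24 and -2.02. ITGA7 and CXXC5 were higher in E47 by 2.03 and 1.84. DSP, low in both, was 1.84 ± 0.17 higher in E47 (adjusted p = 0.00805), since Snail had a mean of -2.51. The 6 genes lower in E47 were LUM (by -1.91), PLAU (-1.41), PCLAF, a partner of the replication clamp (-1.05), GPNMB, a membrane glycoprotein (-1.04), COX7A2 (-0.98) and TUBA3C, an alpha-tubulin (-0.85). The other 12 differences named by the rule were each lost without at least 1 of the 4 samples, with adjusted p from 0.0511 to 0.254 there. Without a sample, DSP and the list members below were not retested for this contrast.

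Within the lists, ID3 was higher in E47 than in Snail by 1.33 ± 0.26 (adjusted p = 0.0468), ID4 by 1.44 ± 0.24 (adjusted p = 0.0293) and BHLHE40 by 1.35 ± 0.26 (adjusted p = 0.0402). The differences of ID1 (1.01, adjusted p = 0.0702), ID2 (1.13, adjusted p = 0.0551), TWIST1 (1.68, adjusted p = 0.0951) and TCF3 (0.76, adjusted p = 0.0773) did not pass. VEGFA was higher in E47 than in Snail by 1.48 ± 0.18, EGR1 by 1.61 ± 0.21, CCND1 by 1.52 ± 0.17, JUND by 1.18 ± 0.17, SFN by 1.17 ± 0.18 and PPARG, the adipogenic nuclear receptor, by 1.61 ± 0.19; PPARG itself did not pass against the control in E47 (0.45).

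E47 and Slug differed at 30 of 3816 genes (0.786%), 20 higher (0.524%) and 10 lower (0.262%) in E47, and at 985 with the sign of E47 turned. Without E47 sample 1 or 2 the count was 8 and 8, without Snail sample 1 or 2 it was 15 each, and without Slug sample 1 it was 14. GAS1 was again higher, by 2.54 ± 0.21 (adjusted p = 0.0098), GNAI1 by 2.12 ± 0.22 (adjusted p = 0.0144) and ITGA7 by 2.10 ± 0.28 (adjusted p = 0.0283). PLA2G7, a secreted phospholipase, lay at 1.01 and 0.54 in E47 and at -1.15 and -1.14 in Slug. MT1X was higher by 1.63 and ID2 by 1.47 ± 0.24 (adjusted p = 0.0473). ATP4A, a proton pump subunit, lay near the control in E47 (-0.38 and -0.50) and at -2.44 and -2.21 in Slug. TTF2, a transcription termination factor, and C8orf76 were higher by 1.55 and 1.48.

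LUM was the gene furthest below Slug, by -3.68 ± 0.36 (adjusted p = 0.0144), with 0.06 and 0.44 in E47 against 3.73 and 4.12 in Slug. ATF4 fell in E47 (-0.67 and -0.63) and lay at 0.80 and 0.81 in Slug, a difference of -1.46 ± 0.16 (adjusted p = 0.018). DDIT4, a stress-induced inhibitor of mTOR signalling, was lower than in Slug by -1.42, CCN1, a matrix-associated growth regulator, by -1.17, LRRC8C, a volume-regulated channel subunit, by -1.63, TSPAN13 by -1.60, FBXO7, an F-box protein, by -1.54 and SH3KBP1, an endocytic adaptor, by -1.20. Of the 16 genes named by the rule, GAS1, GNAI1 and LUM kept their calls against Slug without any E47 or Slug sample; the other 13 were lost without at least 1, with adjusted p from 0.0523 to 0.179 there. MT1X (0.0871), LRRC8C (0.0747), TSPAN13 (0.0629), FBXO7 (0.056), SH3KBP1 (0.0629) and CCN1 (0.0597) were lost without either Snail sample, with the adjusted p given. In all, 8 genes differed from both Snail and Slug: GAS1, GNAI1, ITGA7, SPRY2 (by 0.98 and 1.25), APLP2, a relative of the amyloid precursor protein (0.86 and 1.42), PLA2G7 and C8orf76, all higher in E47, and LUM, lower. Both contrasts use the same E47 samples and the same estimate of spread. A gene past the threshold in both has therefore not been found in 2 independent tests.

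**Figure D5:**
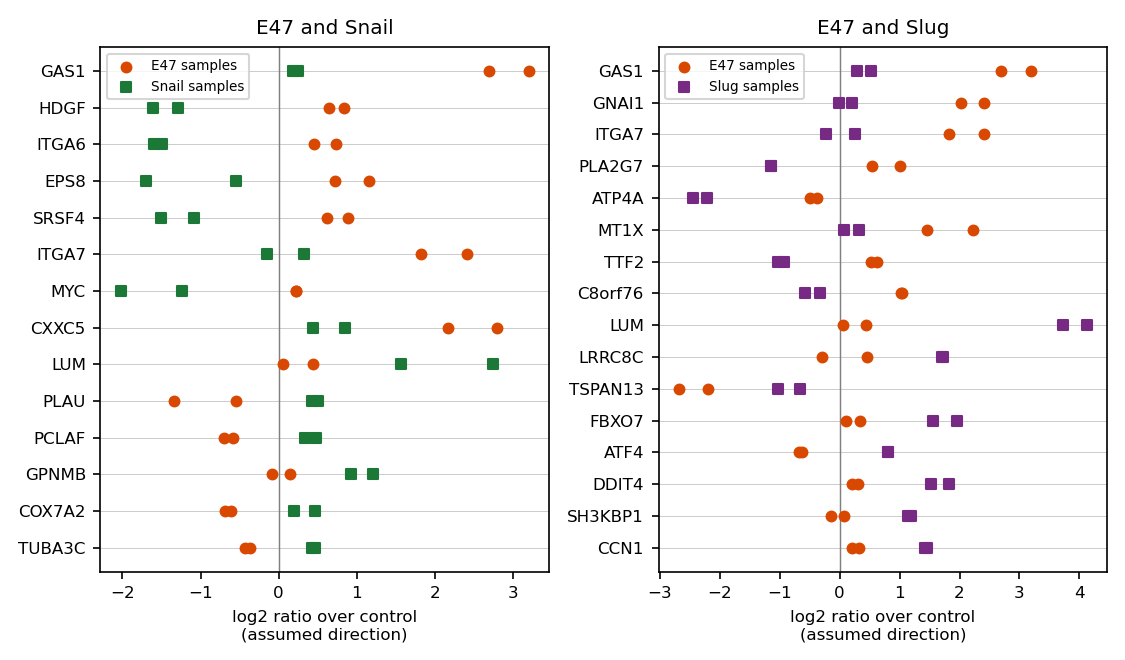
Log2 ratios over control (x axis, assumed direction) of the genes with the largest differences between E47 and Snail (left) and between E47 and Slug (right), 8 in each direction where that many passed; each point is a sample, the mean of 2 arrays. GAS1 lies at 2.70 and 3.20 in E47 and under 1 in both others, and LUM lies under 1 in E47 and above it in both others.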

How the data were processed

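Per the labels, total RNA of transfectant and control was hybridised to 2-colour arrays, 12 in all. The deposited table holds log2 ratios of the channels for 13056 probes; how the authors made them (scanner, background correction, centring, filter behind empty cells) is not given in the sources used here. E47 arrays had values for 11409 to 12044 probes, with deposited medians from -0.038 to 0.058. Probes with 1 symbol in the annotation table (8047; 276 had several, 4733 none) gave 4325 genes; spots were averaged per clone, then clones per gene.

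Signs came from the leading eigenvector of each transfectant's array correlations, computed without CDH1 probes, with CDH1 then set low: 5 of 12 arrays were turned, 1 of them E47's. Each numbered sample is the mean of its 2 arrays (both needed), giving 2 replicates per group. limma 3.58.1 in R 4.3.3 fitted the 3 groups together without an intercept (3 residual degrees of freedom where no value is missing; prior degrees of freedom 4.85, prior SD 0.203), tested E47 against 0 and against each other group, two-sided, with Benjamini-Hochberg adjustment over all genes tested at 0.05. A test against 0 leaves out the control's own spread. The script was tested on simulated data.

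Named genes were the 15 largest rises and falls past the threshold with all E47 arrays on the same side of 0, list members past it and up to 4 per list that were not, and up to 8 in each direction per contrast whose samples did not overlap; exceptions are stated, or are further list members and genes of the sample comparison, chosen after their values were seen. Members, lists and rules were chosen with earlier results of these data known. The number of samples limits the precision. No sequence table was used here.

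Alternatives left out samples or arrays, changed the clone rule, the missing-value rule, the scaling, the block, the dye term and the signs. For the scaling each array was centred on its median and then brought to a common spread. Leaving out the E47 1 array titled Cy3 was chosen after seeing the data.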

Additional observations from a re-analysis of the deposited data

Results flagged for a closer look

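Differences between E47 and another transfectant under the same comparison with the control were found by the limma test of the difference itself, at 93 genes for Snail and 30 for Slug. For Snail the log2 differences, E47 minus Snail, were 2.73 for GAS1, 2.19 for HDGF, 2.13 for ITGA6, 2.06 for EPS8, 2.04 for SRSF4, 2.03 for ITGA7, 1.85 for MYC and 1.84 for CXXC5, and -1.91 for LUM, -1.41 for PLAU, -1.05 for PCLAF, -1.04 for GPNMB, -0.98 for COX7A2 and -0.85 for TUBA3C. For Slug they were 2.54 for GAS1, 2.12 for GNAI1, 2.10 for ITGA7, 1.92 for PLA2G7, 1.88 for ATP4A, 1.63 for MT1X, 1.55 for TTF2 and 1.48 for C8orf76, and -3.68 for LUM, -1.63 for LRRC8C, -1.60 for TSPAN13, -1.54 for FBXO7, -1.46 for ATF4, -1.42 for DDIT4, -1.20 for SH3KBP1 and -1.17 for CCN1.

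Probes without a gene symbol entered none of the values above. Fitted probe by probe in the same way, 70 of 3287 passed against the control in E47 (2.13%), 59 higher and 11 lower in the assumed direction, 35 of them at least 2-fold.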

How the results depend on the processing

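Against the control 210 genes passed; the count ranged from 26 (without E47 2) to 275 (without either Slug sample) with 1 sample left out, was 391 with the E47 arrays alone in the fit, 42 with the arrays titled Cy3 alone, 592 with a gene-wise dye term, and 368 without the E47 1 array titled Cy3, an alternative chosen after seeing the data. The dye-term fit took the 12 arrays as observations instead of the samples, with an estimated within-sample correlation of -0.0982. Its counts therefore do not show the effect of the dye term alone. With signs taken from the titles limma called 0 genes (207 at unadjusted p of 0.05). For E47 minus Snail (93) the range without a sample was 3 (without E47 2) to 137, and the count was 39 with arrays titled Cy5 alone, 1 with those titled Cy3, 493 with the dye term, 153 after scaling and 199 without the E47 1 array titled Cy3. For E47 minus Slug (30) the range was 8 (without either E47 sample) to 27, and the count was 4 with arrays titled Cy3, 260 with the dye term, 16 after scaling and 66 without that array. The other counts, among them 207 against the control with arrays titled Cy5 alone and 194 without the turned array, stayed within 1.5 times; causes were not tested. Without either Snail sample 162 of the 210 calls remained, and SPARC, CALD1, ID1, TGFBI, ITGAV, MMP19, PLAU, PFKM, ATP1B1 and GNAS lost theirs. With the sample number as a replicate block the counts were 231, 101 and 34, and 199 of the 210 genes were shared; same-numbered samples deviated with r between -0.06 and 0.23, and the labels do not pair them. With the E47 sign turned every called gene changes sign (59 higher, 151 lower); under the other alternatives run gene by gene, which leave out the title signs, no named gene past the threshold did. Of the list counts under these alternatives, 108 moved by over 1.5 times and 266 did not. With 2 samples a group, the number of samples limits the precision.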

Other observations

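The following families and genes lie outside the lists and were chosen after their values were seen. For scale, 1997 of the 3966 genes tested lay above 0, and 5.3% were called in either direction. Of 28 proteasome subunits, 6 lay above 0; PSMB5, a catalytic subunit, fell (-0.70 and -1.42 by sample) and PSME3, an activator subunit, rose (0.69 and 0.71), and the median was -0.13. Of 8 subunits of the cytosolic chaperonin CCT, 1 lay above 0, and CCT2 fell (-0.50 and -1.03). Of 8 syntaxins and VAMPs, which drive vesicle fusion, STX3 (0.97 and 2.27) and VAMP3 (0.56 and 0.77) rose. Single genes that rose were CAMK2N1, an inhibitor of a calmodulin kinase (1.28 and 1.79), EREG, the EGF receptor ligand epiregulin (1.03 and 0.85), and AHR, the aryl hydrocarbon receptor (0.90 and 0.75). MARCKS, a protein kinase C substrate at the membrane (-1.26 and -0.83), and MITF, a transcription factor (-0.88 and -0.69), fell. AHR and MITF are themselves basic helix-loop-helix proteins.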
